A study of Mus musculus with 16 samples.

Results

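The nuclear genes for subunits of the 5 oxidative phosphorylation complexes were described across genotype and day in mouse embryonic fibroblasts. Members were chosen by symbol alone: names starting with Nduf and the letter a, b, c, s or v before a digit, Sdha to Sdhd, names starting with Uqcr, Cox4 to Cox8 and Atp5, without a hyphen. This rule found 85 of the 23100 genes in the count table. Of these, 82 encode complex subunits or their isoforms (37 for complex I, 4 for II, 8 for III, 18 for IV and 15 for V), and 3 carry such a name without being subunits (Cox4nb, Atp5s and Atp5sl). The cells were C57BL/6 embryonic fibroblasts, cultured connective tissue cells taken at embryonic day 13.5. They were heterozygous for a mutation of Zac1 (Zac+/-, called mutant here) or wildtype (Zac+/+). The titles of all mutant samples hold the code KOpat, which the labels do not explain. Whether this code names the parent that passed on the mutation is not stated. Zac1, named Plagl1 in the count table, is an imprinted gene whose product binds DNA through zinc fingers. Each of 4 lines, 2 per genotype, was harvested at days 2, 8, 10 and 12 in vitro. All were grown in serum-containing medium, with day 2 called proliferative and days 8, 10 and 12 quiescent. Each genotype rests on 2 lines, and the sources used here do not say how the mutation was made. In each genotype the letters I and L in the titles mark the 2 lines, in the order of their numbers here. The genotypes share these letters, and their meaning is not given.

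Complexes I to IV pass electrons from NADH and succinate along the inner mitochondrial membrane to oxygen, and complexes I, III and IV pump protons on the way. Complex V, the ATP synthase, lets the protons flow back through a rotor and makes ATP. Most subunits are encoded in the nucleus, translated on cytoplasmic ribosomes and imported, while a few central ones are encoded in mitochondrial DNA and are not among the members here. Some subunits of complex IV exist as alternative isoforms known from muscle, lung or testis.

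The 16 libraries held 28079241 to 61039793 counts each, and the members took 0.698% to 1.03% of them. Plagl1, the targeted gene, stood at 9.14 and 7.60 CPM (counts scaled to the library's depth by TMM factors) in the mutant lines at day 2, against 45.4 and 37.7 CPM in the wildtype lines. The groups did not overlap, and its log2 fold change, mutant over wildtype, was -2.31 (SE 0.16, adjusted p = 0.00085, edgeR's quasi-likelihood test). The 10 fibroblast markers summed to 46710 to 66708 CPM in quiescent and 21220 to 23859 CPM in proliferative libraries, so the labelled cell type was present throughout. The 8 proliferation markers summed to 270.3 to 534 CPM in quiescent and 1521 to 1835 CPM in proliferative libraries. Macrophage markers varied by line and day, with sums of 13.5 to 439 CPM in quiescent and 13.7 to 103 CPM in proliferative libraries, and their part in the results was not tested. Erythroid markers were near 0, with 4 of 6 at 0 counts everywhere.

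Levels per length were compared as CPM per kilobase of transcript. In the proliferative lines Cox6b1, which links the monomers of complex IV, averaged 533.5 ± 9.31 in mutant and 625 ± 74.8 in wildtype (SD, n = 2 lines each). Atp5b, the catalytic beta subunit of the ATP synthase, averaged 611 ± 74.3 in mutant and 604 ± 0.223 in wildtype on the same scale. These were the members with the highest levels per kilobase in proliferative cells. Of the 85 members, 81 had enough counts to be tested. Ndufs5, a complex I subunit, and Cox8c, an isoform of a small complex IV subunit, were listed at 0 in every library. Such a listing does not show that a gene is not expressed, and for Ndufs5, a general subunit, the reason was not tested. Cox7b2 had 6 counts and Cox8b had 20 counts over all 16 libraries, and neither was tested.

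Quiescent and proliferative cells were compared first, with the 3 quiescent harvests of a line summed so that the line was the replicate. In mutant cells 17 of the 81 tested members fell in quiescence and 8 rose, where 21% of all 15740 genes tested fell and 21.1% rose. In wildtype cells 38 members fell and 5 rose, where 23.7% of all genes tested fell and 23.9% rose. The falling share of the members was thus 21% in mutant, the same as that of all genes, and 46.9% in wildtype. The rising share was 9.88% in mutant and 6.17% in wildtype, below that of all genes. The median log2 fold change of the members, quiescent over proliferative, was -0.04 in mutant and -0.30 in wildtype, against 0.05 for all genes tested in either genotype. All 17 members that fell in mutant also fell in wildtype, where they are 17 of 38. All 5 that rose in wildtype also rose in mutant, where they are 5 of 8. Values are CPM of bulk RNA, so less of a transcript per cell and fewer cells with it cannot be told apart. The number of falling members depended on single lines. In wildtype it was lower without wildtype line 1 and without wildtype line 2, and in mutant it was lower without mutant line 2. Such fits leave 1 line in a group and less data for every gene. Shares of all genes in these fits were not set beside the members, so this drop is not a trait of the members.

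**Figure D1:**
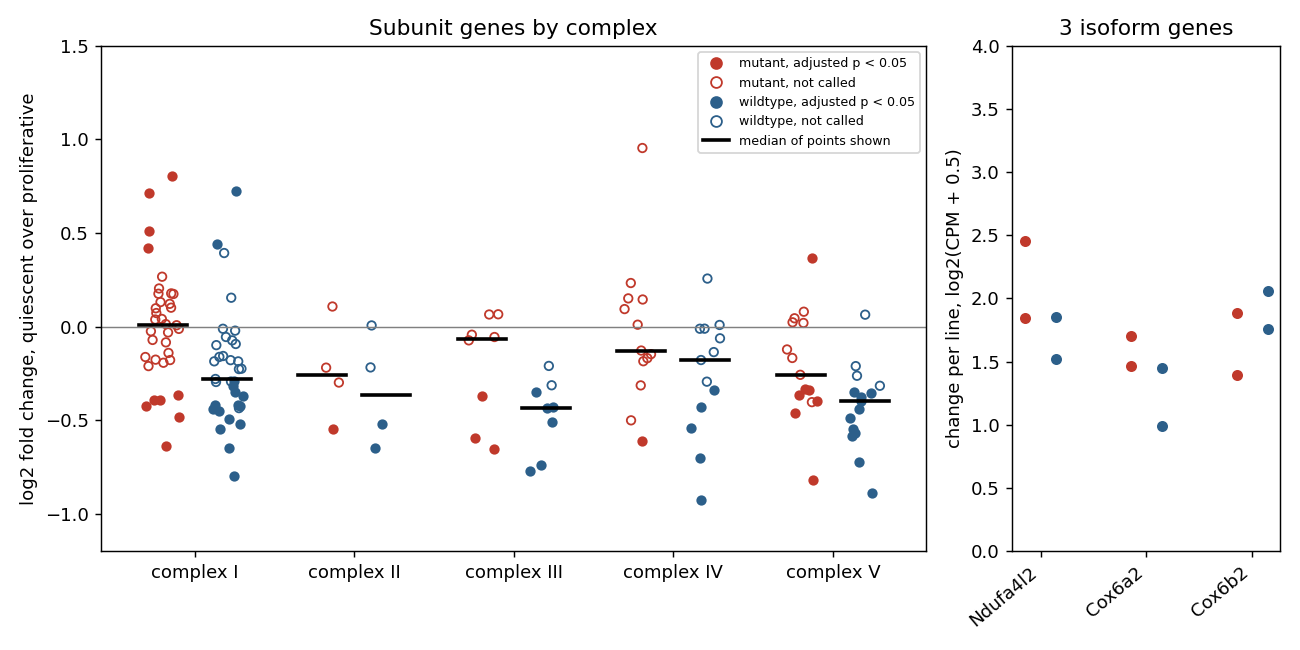
Left: log2 fold change, quiescent over proliferative, of the tested subunit genes of each complex (vertical axis), mutant in red and wildtype in blue; filled points passed an adjusted p of 0.05 and black bars are medians of the points shown. Right: the change in each line, on the log2(CPM + 0.5) scale, for the 3 isoform genes left out of the left panel; all 4 lines lie above 0 for each of them.

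Complex I oxidises NADH with a set of core subunits surrounded by accessory ones. Of its 36 tested genes, 6 fell and 5 rose in mutant, and 14 fell and 3 rose in wildtype, with medians of 0.01 in mutant and -0.25 in wildtype. Ndufa12, an accessory subunit, was lower in every quiescent line. It stood at 40.1 and 40.8 CPM in quiescent and 57.8 and 68.1 CPM in proliferative mutant lines. In wildtype it stood at 39.7 and 39.5 CPM in quiescent and 70.4 and 67.4 CPM in proliferative lines. The states did not overlap in either genotype, and its log2 fold change was -0.64 (SE 0.11, adjusted p = 0.0012, edgeR) in mutant and -0.80 (SE 0.11, adjusted p = 0.00026, edgeR) in wildtype. Core subunits of the NADH-oxidising arm also fell in both genotypes. Ndufs1, the large iron-sulfur subunit, changed by -0.42 in mutant and -0.49 in wildtype on the log2 scale, and Ndufv1, which binds NADH and flavin, by -0.37 in each. The core gene Ndufs8 fell in wildtype by 0.42 on the log2 scale and had -0.14 in mutant without passing the test. Other accessory subunits that fell in both were Ndufa9, Ndufa10 and Ndufb8. The core subunits Ndufs3, Ndufs7 and Ndufv2 passed the test in neither genotype, with log2 values of 0.18, -0.21 and -0.07 in mutant and -0.10, -0.44 and -0.29 in wildtype.

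Accessory subunits of complex I were also among the members that rose. Ndufv3, a small subunit beside the NADH-binding site, stood at 69.8 and 77.4 CPM in quiescent and 42.1 and 42.0 CPM in proliferative mutant lines. The wildtype levels were 71.7 and 73.0 CPM in quiescent and 45.8 and 41.9 CPM in proliferative lines. All quiescent values lay above all proliferative ones, with a log2 fold change of 0.81 (SE 0.10, adjusted p = 0.00023, edgeR) in mutant and 0.72 (SE 0.10, adjusted p = 0.00034, edgeR) in wildtype. Ndufa13, also known as GRIM-19, had log2 fold changes of 0.71 (SE 0.13, adjusted p = 0.0018, edgeR) in mutant and 0.44 (SE 0.13, adjusted p = 0.019, edgeR) in wildtype. Its quiescent values of 140.1 and 154 CPM in mutant and 139 and 145 CPM in wildtype were all above the proliferative ones, which reached 101 CPM in mutant and 107 CPM in wildtype. Without wildtype line 1 the wildtype rise of Ndufa13 no longer passed the test. Ndufa1 and Ndufa6, both accessory subunits, rose in mutant by 0.42 and 0.51 on the log2 scale, and had 0.15 and 0.39 in wildtype without passing the test there.

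Complex II, succinate dehydrogenase, feeds electrons from the citric acid cycle into the chain. Sdhd, a membrane anchor, fell in both genotypes and stood at 89.3 and 102 CPM in quiescent and 144 and 136 CPM in proliferative mutant lines. Wildtype lines had 94.9 and 100.5 CPM in quiescent and 167 and 140.4 CPM in proliferative lines, and the states did not overlap. The log2 fold change was -0.55 (SE 0.12, adjusted p = 0.0044, edgeR) in mutant and -0.65 (SE 0.12, adjusted p = 0.0014, edgeR) in wildtype. Sdhb, the iron-sulfur subunit, had -0.30 in mutant, which did not pass the test, and fell by 0.52 on the log2 scale in wildtype. The flavoprotein gene Sdha had -0.22 in each genotype and the other anchor gene Sdhc 0.11 in mutant and 0.01 in wildtype, and neither passed the test.

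Complex III, the cytochrome bc1 complex, passes electrons from ubiquinol to cytochrome c. Of its 8 genes 3 fell in mutant and 6 in wildtype, with medians of -0.06 in mutant and -0.43 in wildtype, and none rose. The 3 that fell in both encode the Rieske protein and the core proteins. Uqcrfs1, the Rieske iron-sulfur protein, stood at 39.5 and 41.7 CPM in quiescent and 63.6 and 64.1 CPM in proliferative mutant lines. In wildtype it stood at 39.3 and 40.1 CPM in quiescent and 70.6 and 61.9 CPM in proliferative lines. The states did not overlap, and the log2 fold change was -0.65 (SE 0.11, adjusted p = 0.00088, edgeR) in mutant and -0.74 (SE 0.11, adjusted p = 0.00033, edgeR) in wildtype. The core proteins Uqcrc1 and Uqcrc2 changed by -0.60 and -0.37 in mutant and by -0.77 and -0.51 in wildtype on the log2 scale. The mutant call of Uqcrc2 (adjusted p = 0.044, edgeR) was lost in 7 of 16 other settings, with log2 values between -0.58 and -0.18. The small subunit genes Uqcr10, Uqcr11 and Uqcrb fell in wildtype by 0.35, 0.43 and 0.43 on the log2 scale, and had -0.04, -0.06 and -0.07 in mutant without passing the test.

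Complex IV, cytochrome c oxidase, reduces oxygen. Of its 15 tested genes 1 fell and 2 rose in mutant, and 5 fell and 2 rose in wildtype. Cox5a, a subunit found in all tissues, stood at 39.6 and 41.6 CPM in quiescent and 53.3 and 70.6 CPM in proliferative mutant lines. The wildtype levels were 38.4 and 34.9 CPM in quiescent and 72.2 and 67.2 CPM in proliferative lines. No quiescent value reached a proliferative one, and the log2 fold change was -0.61 (SE 0.14, adjusted p = 0.0058, edgeR) in mutant and -0.93 (SE 0.14, adjusted p = 0.00044, edgeR) in wildtype. Cox7a2, Cox7b, Cox6b1 and Cox4i1, the general forms of their subunits, fell in wildtype by 0.70, 0.54, 0.43 and 0.34 on the log2 scale. In mutant they had -0.31, -0.15, -0.13 and -0.17, and none of the 4 passed the test. Cox6c and Cox7c passed the test in neither genotype.

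Complex V had the largest summed level of the 5 complexes in every library. Of its 15 genes 6 fell and 1 rose in mutant, and 11 fell and 0 rose in wildtype, with medians of -0.26 in mutant and -0.40 in wildtype. Atp5b stood at 654 and 672 CPM in quiescent and 1070.4 and 1272 CPM in proliferative mutant lines. Wildtype lines had 638 and 613 CPM in quiescent and 1158 CPM in both proliferative lines. The states were far apart in both genotypes, with a log2 fold change of -0.82 (SE 0.11, adjusted p = 0.00031, edgeR) in mutant and -0.89 (SE 0.11, adjusted p = 0.00015, edgeR) in wildtype. The other head subunits that fell in both genotypes were Atp5a1 (alpha, -0.40 in each) and Atp5c1 (the rotor's gamma shaft, -0.34 in mutant and -0.49 in wildtype). The stalk genes Atp5f1 (subunit b) and Atp5o (the oligomycin sensitivity-conferring protein) and the c-ring gene Atp5g3 also fell in both. Their log2 values were -0.33, -0.36 and -0.46 in mutant and -0.59, -0.57 and -0.72 in wildtype. The mutant call of Atp5g3 (adjusted p = 0.046, edgeR) was lost in 10 of 16 other settings, with log2 values between -0.79 and -0.089. Its change in log2(CPM + 0.5) was -0.10 in mutant line 1 and -0.76 in mutant line 2. Atp5e, the small epsilon subunit of the same head, went the other way in mutant. It stood at 114 and 119.8 CPM in quiescent and 85.9 and 95.4 CPM in proliferative mutant lines, a log2 fold change of 0.37 (SE 0.11, adjusted p = 0.021, edgeR), and had 0.06 in wildtype without passing the test. The stalk gene Atp5h and the membrane genes Atp5k and Atp5l passed the test in neither genotype.

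Atp5g1, Atp5g2 and Atp5g3 encode the same mature protein with different import sequences. Per kilobase, Atp5g2 made up 46.4% and 49.2% of their summed level in quiescent mutant lines, against 48.8% and 42.1% in proliferative ones. Atp5g3 made up 45.8% and 41.9% in quiescent mutant lines, against 42.9% and 51.2% in proliferative ones, so the shares overlapped between states there. In wildtype Atp5g3 made up 44.6% and 41.0% in quiescent lines, against 48.9% and 49.3% in proliferative lines, and Atp5g2 made up 47.8% and 51.2% against 44.0% and 43.8%.

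The isoform genes gave the largest rises. Ndufa4l2 is the paralogue of Ndufa4, a subunit first assigned to complex I, where both are counted here by name, and now placed with complex IV. Ndufa4l2 is known as a hypoxia-inducible gene. It was at 2.45 and 1.43 CPM in quiescent mutant lines, against 3 counts in all in the proliferative ones. That is a 54.0-fold ratio, with a 95% interval of 18.4 to 263 from counting error alone. In wildtype it was at 1.61 and 1.49 CPM in quiescent and 0.234 and 0.0503 CPM in proliferative lines, a log2 fold change of 3.58 (SE 0.62, adjusted p = 0.001, edgeR). The gene was thus near absent at day 2 and low at every later day, with 43 to 137 counts per library. The level remained small beside Ndufa4, of whose summed level per kilobase Ndufa4l2 made up 0.690% and 0.332% in quiescent mutant and 0.434% and 0.383% in quiescent wildtype lines.

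Cox6b2 is the form of subunit 6B known from testis. It was at 14.6 and 11 CPM in quiescent and 5.25 and 2.61 CPM in proliferative mutant lines. In wildtype it was at 20.4 and 13.9 CPM in quiescent and 4.51 and 3.76 CPM in proliferative lines. The states did not overlap, with log2 fold changes of 1.73 (SE 0.33, adjusted p = 0.003, edgeR) in mutant and 2.06 (SE 0.33, adjusted p = 0.00095, edgeR) in wildtype. Its share of the Cox6b genes per kilobase was 6.86% and 4.63% in quiescent mutant lines, against 2.19% and 1.13% in proliferative ones. In wildtype the share was 9.02% and 6.58% in quiescent lines, against 1.51% and 1.49% in proliferative ones.

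Cox6a2 is the form of subunit 6A known from heart and skeletal muscle. It was at 1.48 and 1.66 CPM in quiescent and 0.217 and 0.163 CPM in proliferative mutant lines, and at 0.949 and 0.960 CPM in quiescent and 0.0293 and 0.235 CPM in proliferative wildtype lines. It rose in both genotypes, by log2 fold changes of 3.07 (SE 0.62, adjusted p = 0.0033, edgeR) in mutant and 2.69 (SE 0.62, adjusted p = 0.0054, edgeR) in wildtype. These rest on 15 counts in the proliferative libraries of each genotype. Over the same libraries the 14 skeletal and cardiac muscle markers summed to 51.6 to 85.6 CPM in quiescent and 149 to 298 CPM in proliferative cells, while gene by gene 2 of the 12 tested rose and 1 fell in mutant, and 4 rose and 1 fell in wildtype. Of the 14, 1 was at 0 everywhere, and the part of this list in the change of Cox6a2 was not tested. The muscle form Cox7a1 and the lung form Cox4i2 passed the test in neither genotype, with log2 values of -0.50 and 0.95 in mutant and -0.14 and 0.26 in wildtype. The general forms Cox6a1 and Cox8a, and Cox7a2l, a gene related to Cox7a2, also passed the test in neither genotype. The sign of Cox6a1, Cox7a2l and Cox8a in wildtype changed between scalings.

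**Figure D2:**
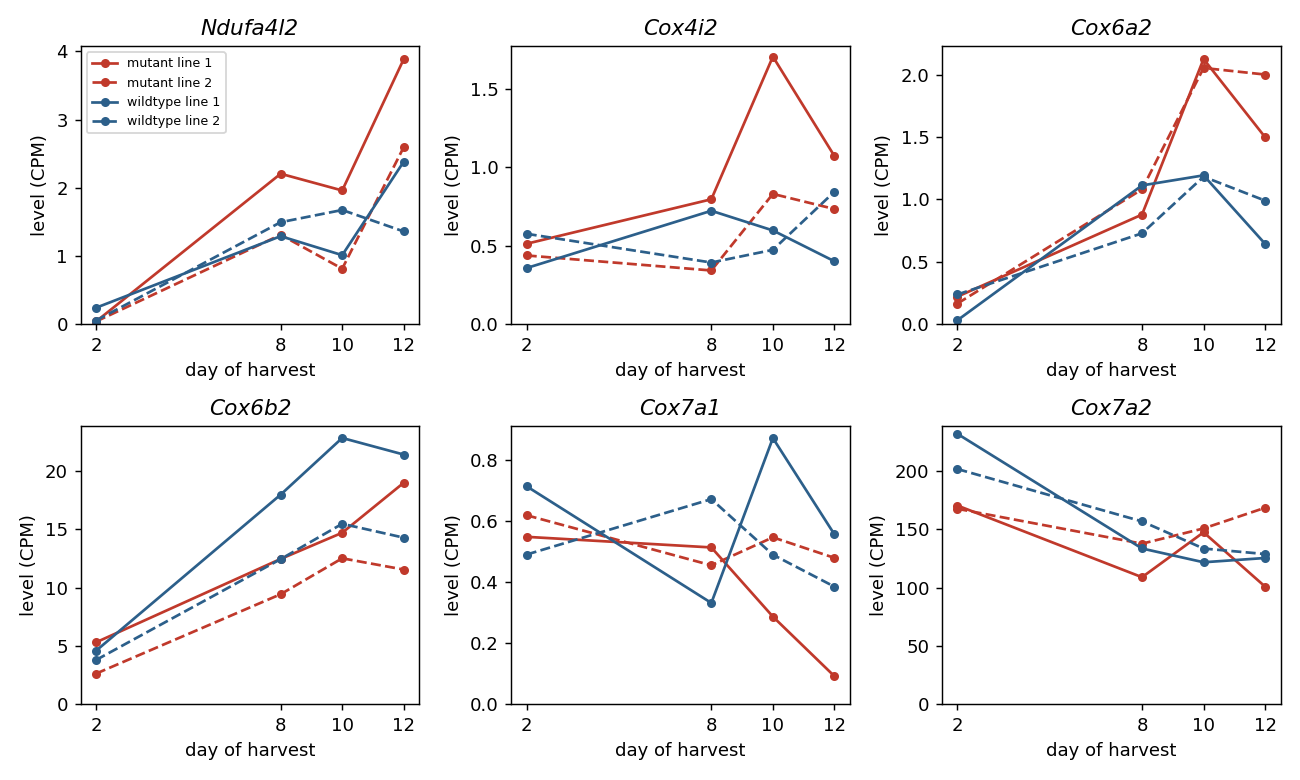
Level in CPM (vertical axis, from 0, its own scale in each panel) against day of harvest for 6 isoform genes, mutant lines in red and wildtype lines in blue; solid lines are line 1 and dashed lines are line 2. Ndufa4l2, Cox6a2 and Cox6b2 lie lowest at day 2 in all 4 lines, while the general form Cox7a2 is highest at day 2 in 3 of the 4 lines.

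Promoter windows of 300 bases, from 250 before to 50 after the gene start, were available for 69 members in RefSeq sequence of build GRCm38.p6. They were searched on both strands for 1 spelling of each of 4 factors known to act on mitochondrial genes. NRF1 (GCGCATGCG) was spelled in 11.6% of members with a window, against 2.63% of the 17539 genes of the count table with a window. YY1 (AAGATGGCG) was spelled in 11.6% of members, against 2.195% of these genes. GABP (CCGGAAGT) was in 7.25%, against 5.79%, and ERR (TGACCTTG) in 5.80%, against 1.48% of these genes. Of the 17 members that fell in both genotypes, 14 had a window and 4 of these held a match, which is 28.6%, against 33.3% (23 of 69) of all members with a window. Holding a match thus did not set apart the members that fell. The 4 are shown here 5′ to 3′ on the gene's strand, with the match in capitals, as examples of the letters among the members that changed in both genotypes. In Uqcrc1 the NRF1 letters match on both strands in overlapping positions. A match is a description of the letters and not of binding.
Atp5g3, ERR, chr2:73911346-73911403, minus strand: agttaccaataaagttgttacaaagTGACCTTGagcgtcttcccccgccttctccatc
Sdhd, ERR, chr9:50603800-50603823, minus strand: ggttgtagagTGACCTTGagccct
Uqcrc1, NRF1, chr9:108936668-108936696, plus strand: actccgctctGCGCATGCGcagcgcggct
Ndufa9, YY1, chr6:126849097-126849125, minus strand: attgtgggagAAGATGGCGgccgccgtcc

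Genes that work with the subunits were counted by lists, to be read beside the 21% of all genes that fell in mutant and the 23.7% that fell in wildtype. Cytochrome c (Cycs), the mobile carrier between complexes III and IV, fell by 1.17 on the log2 scale in mutant (SE 0.13, adjusted p = 7.31e-05, edgeR) and by 1.51 in wildtype (SE 0.13, adjusted p = 1.26e-05, edgeR). Cytochrome c1 (Cyc1), a complex III subunit outside the name rule, fell by 0.64 in mutant and 0.73 in wildtype. Both belong to a list of 7 tested genes outside the name rule. Of that list 28.6% fell in mutant and 71.4% in wildtype, and none rose. Of 27 assembly factors, 7 fell and 1 rose in mutant and 10 fell and 0 rose in wildtype, among them Ndufaf4 (-1.10 in wildtype) and Ndufaf2 (-0.86 in wildtype), both for complex I. The falling share of this list was 25.9% in mutant and 37% in wildtype, so in mutant it was near that of all genes. Of 17 citric acid cycle enzymes, 9 fell in mutant and 11 in wildtype and none rose, with Idh3a at -1.37 and citrate synthase (Cs) at -0.84 in wildtype. Of 23 import and carrier genes, 18 fell in mutant and 21 in wildtype and none rose, with medians of -0.57 in mutant and -0.79 in wildtype; Timm8a1 (-1.96 in wildtype) and Tomm40 (-1.35 in wildtype) act in protein import. Of 76 mitochondrial ribosomal protein genes, chosen by name after the data were seen, 32 fell and 1 rose in mutant and 56 fell and 0 rose in wildtype. Of 16 tested regulators of mitochondrial gene expression, 4 fell and 1 rose in mutant and 5 fell and 1 rose in wildtype, with the coactivator Pprc1 at -0.87 and the DNA polymerase Polg at -0.56 in wildtype. The falling share of the regulators was 25% in mutant and 31.2% in wildtype, also near that of all genes in mutant. It was 78.3% in mutant and 91.3% in wildtype for the import list, and 42.1% in mutant and 73.7% in wildtype for the mitochondrial ribosomal list. The medians of the mitochondrial ribosomal list (-0.34 in mutant, -0.56 in wildtype) and of the import list were lower than those of the subunit genes (-0.04 and -0.30), a difference that was not tested.

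Mutant and wildtype cells were then compared within each state. No member passed the test in proliferative cells or in quiescent cells, where 0.00635% of all genes tested were called in each state, a single gene, Plagl1. In proliferative cells edgeR gave 18 members with an unadjusted p below 0.05 and DESeq2 called 0. In quiescent cells edgeR gave 0 members with an unadjusted p below 0.05 and DESeq2 called 0. The members leaned to one side without passing. In proliferative cells 72 of 81 had a lower fitted value in mutant, with a median log2 of -0.15, against 0.00 for all genes. In quiescent cells 67 of 81 had a higher one, with a median of 0.05, against 0.01 for all genes. The members share libraries, so these are not 81 independent observations. The share of all genes with an unadjusted p below 0.05 was not set beside the members' count in either state. The quiescent median was -0.08 without day 10, with 18 members higher, and -0.01 without mutant line 2. Tested genes shorter than 1 kilobase that are not members had medians of -0.11 in proliferative and 0.06 in quiescent cells. Such genes of at least 2 kilobases had 0.03 and 0.001. A correction for GC content and length, described below, left member medians of -0.04 in proliferative and 0.003 in quiescent cells.

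The genes with the smallest p are given next, and since they were picked for it their values lie beyond the median of the members. Atp5j2, a membrane subunit of the ATP synthase, stood at 22.8 and 20.7 CPM in proliferative mutant and 31.8 and 30.2 CPM in proliferative wildtype lines. The genotypes did not overlap, and the log2 fold change was -0.52 (SE 0.12, unadjusted p = 0.0013, adjusted p = 1, edgeR). Cox7b and Ndufa3, small subunits of complexes IV and I, had -0.39 and -0.38 in proliferative cells, also with an adjusted p of 1 in edgeR. In quiescent cells the smallest p belonged to Cox4i2 (log2 0.70, SE 0.47), Ndufa10 (0.16, SE 0.11) and Atp5g1 (0.15, SE 0.11), with adjusted p = 0.999997 each in edgeR.

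The difference between genotypes in the change from proliferation to quiescence was tested directly. No member passed, and 0% of all genes tested were called. Only 2 members had an unadjusted p below 0.05 in edgeR, and DESeq2 called 0. Thus the larger count of falling members in wildtype was not accompanied by any called difference between genotypes. The fitted difference, mutant change minus wildtype change, was above 0 for 74 of 81 members, with a median of 0.22, against 0.01 for all genes. The median was 0.10 without day 10. Ndufa5, an accessory subunit of complex I, had the smallest p. Its levels were 37.4 and 50.6 CPM in quiescent and 38.7 and 43.3 CPM in proliferative mutant lines, and 40.1 and 41.2 CPM in quiescent and 55.5 and 53.2 CPM in proliferative wildtype lines. The states overlapped in mutant and not in wildtype, and the difference of the log2 changes was 0.52 (SE 0.20, unadjusted p = 0.030, adjusted p = 0.999953, edgeR).

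The course over days was followed in the 16 single libraries. From day 2 to day 8, averaged over genotypes, 30 members fell and 7 rose, where 26.4% of all 15439 genes tested fell and 28.1% rose. The falling count was lower without wildtype line 1 and without wildtype line 2. These fits leave 1 line in a group, and shares of all genes in them were not set beside the count. The summed level of the members at days 2, 8, 10 and 12 was 8964, 7471, 8848 and 6847 CPM in mutant line 1. It was 9834, 8186, 9425 and 8116 CPM in mutant line 2. In wildtype line 1 it was 10898, 8758, 7694 and 7594 CPM, and in wildtype line 2 it was 9888, 8571, 7890 and 7510.0 CPM. Both mutant lines thus had a higher sum at day 10 than at days 8 and 12, while both wildtype lines had a lower sum at each later day.

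**Figure D3:**
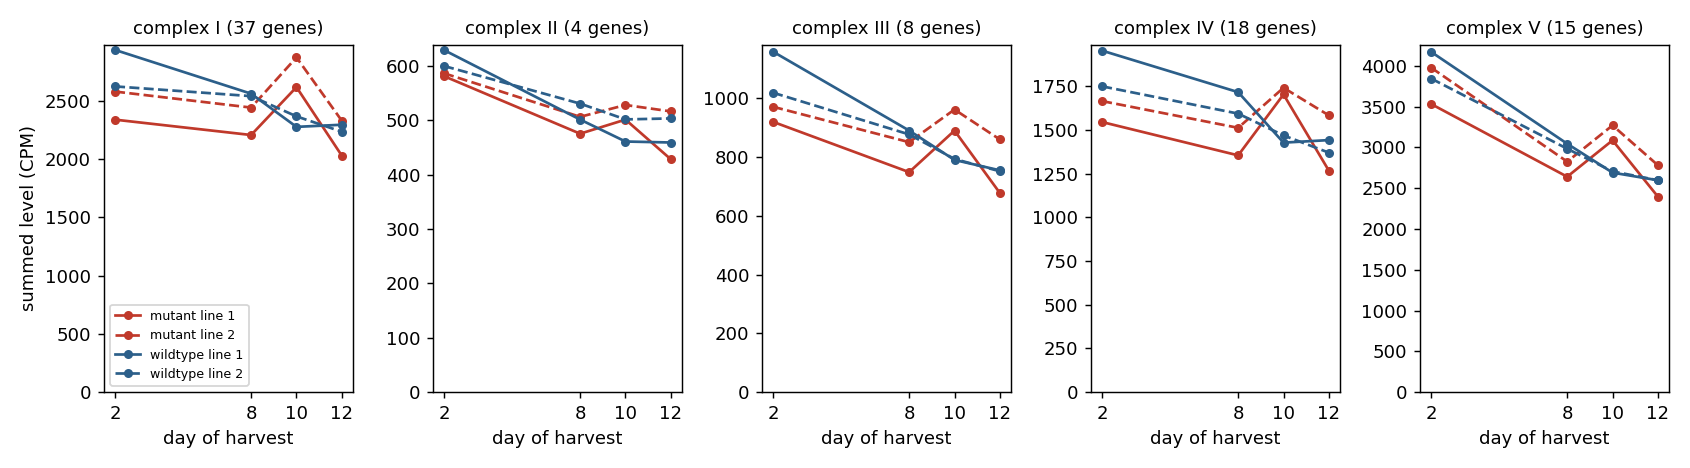
Summed level of the member genes of each complex in CPM (vertical axis, from 0, its own scale in each panel) against day of harvest, mutant lines in red and wildtype lines in blue; solid lines are line 1 and dashed lines are line 2. In each of the 5 panels both mutant lines are higher at day 10 than at day 8, and both wildtype lines are lower at day 10 than at day 8.

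From day 8 to day 10, averaged over genotypes, no member passed the test, where 0.0583% of all genes fell and 0.00648% rose. In edgeR 2 members had an unadjusted p below 0.05, and DESeq2 called 0. This average joins opposite directions. The median change of the members in log2(CPM + 0.5) was 0.25 in mutant line 1 and 0.24 in mutant line 2, and -0.17 in wildtype line 1 and -0.10 in wildtype line 2. The genotypes did not overlap in this median. A test of the difference, added after these values were seen, called no member, and 0% of all genes were called. It gave 29 members with an unadjusted p below 0.05, with 74 of 81 differences above 0 and a smallest adjusted p of 0.53 in edgeR. The share of all genes at that cut-off was not set beside this count, and the members share libraries. DESeq2 was not run for this contrast. Summed levels of the citric acid cycle, import, mitochondrial ribosomal and cytoplasmic ribosomal genes were also higher at day 10 than at day 8 in both mutant lines. In both wildtype lines these sums were lower at day 10 than at day 8.

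From day 10 to day 12, averaged over genotypes, no member passed edgeR's test, where 0.389% of all genes fell and 0.0259% rose. Of the 81 members, 74 were lower (median log2 -0.18) and 37 had an unadjusted p below 0.05 in edgeR. The share of all genes at that cut-off was not set beside this count. Tested genes shorter than 1 kilobase that are not members had a median of -0.11, against 0.03 for such genes of at least 2 kilobases. A correction for GC content and length, described below, left a member median of -0.03. DESeq2 called 9 falling members in the same comparison, where it called 1.75% of all genes falling. Without mutant line 1 edgeR called 9 members, where 1.74% of all genes fell. Within mutant alone 8 members fell, where 0.693% of all genes tested fell. Within wildtype 0 fell, with 0 at an unadjusted p below 0.05, where 0% of all genes fell. This split was chosen after the day courses were seen, and DESeq2 was not run for it. Whether this change differed between the genotypes was not tested. The 8 were 6 accessory subunits of complex I (Ndufa7, Ndufa12, Ndufb6, Ndufb7, Ndufb9 and Ndufc2), Sdhb and Uqcr11. Uqcr11, the smallest subunit of complex III, stood at 65.6 and 54.6 CPM at day 12 and 91.9 and 109 CPM at day 10 in the mutant lines. In wildtype it stood at 77.9 and 66.3 CPM at day 12 and 79.2 and 83.9 CPM at day 10. The days did not overlap in either genotype, and the change in mutant was -0.74 (SE 0.15, adjusted p = 0.044, edgeR). Ndufa7 had the smallest p in mutant, with 87.4 and 86.2 CPM at day 12 and 119 and 124 CPM at day 10, a log2 change of -0.49 (SE 0.10, adjusted p = 0.043, edgeR).

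Within single days no member passed the genotype test, where 0.00648% of all genes tested were called at day 8, at day 10 and at day 12. DESeq2 called 0 members at each of these days. At day 8 the median log2, mutant over wildtype, was -0.13, with 71 of 81 members lower and 8 at an unadjusted p below 0.05 in edgeR. At day 10 it was 0.24, with 75 of 81 higher and 27 at an unadjusted p below 0.05. At day 12 it was -0.03, with 47 of 81 lower and 0 at an unadjusted p below 0.05. Shares of all genes at that cut-off were not set beside the counts of these days. Cox5a had the smallest p at day 10, a gene singled out after its values were seen. It stood at 52.6 and 51.6 CPM in mutant and 32.6 and 35.3 CPM in wildtype lines at that day. The genotypes did not overlap, with a log2 fold change of 0.62 (SE 0.15, unadjusted p = 0.0011, adjusted p = 0.47, edgeR).

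**Figure D4:**
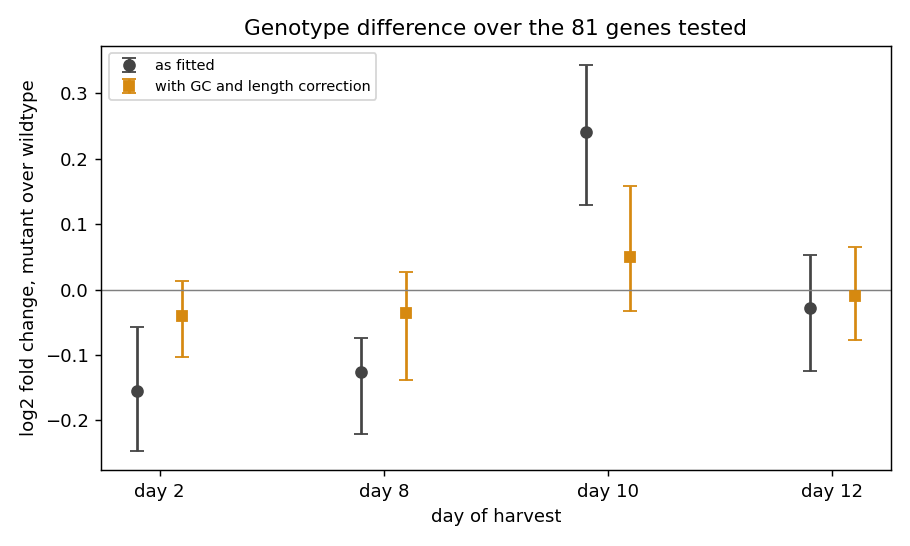
Median log2 fold change, mutant over wildtype, of the 81 tested members at each day of harvest (points), with bars from the first to the third quartile over genes, not an error over lines. Circles are the fitted values and squares those after a correction for GC content and transcript length; at day 10 the median is 0.24 as fitted and 0.05 after the correction.

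The members are short, with a median transcript length of 742 bases, against 2720 bases for all tested genes with a length. Tested genes shorter than 1 kilobase that are not members numbered 1032 in the state comparisons and 1004 at single days. Their median log2 was -0.0048 in mutant and -0.15 in wildtype for quiescent over proliferative cells, and 0.20 for mutant over wildtype at day 10. Genes of at least 2 kilobases had 0.06, 0.10 and -0.04 in the same comparisons. Among the members themselves the order between states was the other way round. The 28 members of at least 1 kilobase had a median of -0.27 in mutant and -0.39 in wildtype, against 0.02 in mutant and -0.29 in wildtype for the 53 shorter ones. For mutant over wildtype at day 10 the longer members had 0.18 and the shorter ones 0.27. A correction for GC content and length in each library, added after seeing the data, left a median for the members of -0.03 in mutant and -0.10 in wildtype between states, 0.04 for the difference of these changes and 0.05 for genotype at day 10. With it 20 members (24.7%) fell and 11 (13.6%) rose in mutant, where 25.9% of all genes in that fit fell and 26.3% rose. In wildtype 27 members (33.3%) fell and 10 (12.3%) rose, where 27.3% of all genes fell and 28.7% rose. Of the calls described above, 16 of 17 falling and 8 of 8 rising members in mutant were also called with the correction, as were 25 of 38 falling and 5 of 5 rising members in wildtype. This correction removes any change that genes of like length and GC share, whatever its source, and the part of length and GC in the shifts was not tested. Cytoplasmic ribosomal protein genes, a list added after seeing the data, summed to 59675 and 63677 CPM at day 10 in mutant lines, against 53454 and 52909 CPM in wildtype lines. Of these ribosomal genes, 43 of 78 fell in mutant and 74 of 78 in wildtype between states.

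Members that fell under every choice of lines are given next. Leaving out a line leaves 1 line in a group and less data for every gene. The share of all called genes that kept their call was not worked out, so the number of such members is not a trait of the members. In mutant Atp5b, Ndufa12 and Uqcrfs1 were called with all lines and without each line in turn. In wildtype Atp5b, Cox5a, Ndufa12, Uqcrc1 and Uqcrfs1 were called in all these fits. Every other member that fell lost its call without at least 1 line. The members that rose in all these fits were Cox6b2, Ndufa13, Ndufa4l2 and Ndufv3 in mutant and Cox6a2, Cox6b2, Ndufa4l2 and Ndufv3 in wildtype. Some of these genes overlap others on the opposite strand in the GRCm38 annotation, among them Ndufa13 (Tssk6), Ndufa4l2 (Shmt2), Cox6a2 (Itgad) and Cox5a (Gm26631). Libraries were stranded, but the sources used here do not name the strand setting of the counting, so values of such genes are uncertain.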

How the data were processed

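RNA libraries were prepared with a stranded kit from total RNA, per the labels' protocols. The submitters' processing notes name HTSeq 0.6.1p1, Bowtie2 2.2.9, TopHat2 2.1.1 and bcl2fastq 2.18, and build mm9. The deposited table holds whole-number counts per gene, not normalized. Of its columns, 0 belonged to other samples.

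CPM used TMM scaling. Counts of days 8, 10 and 12 of a line were summed, giving 8 libraries in 4 groups. Tests used edgeR 4.0.16 under R 4.3.3 (quasi-likelihood, robust, filterByExpr), Benjamini-Hochberg adjusted over all genes and called under 0.05; SE was obtained by dividing the size of the log2 fold change by the root of F. Day comparisons used 16 libraries and took repeat harvests of a line as independent. With 2 lines a group, the smallest two-sided exact permutation p is 0.333. Intervals from counts cover counting error only. The script was tested on simulated data. Alternatives included DESeq2 1.42.0.

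Named genes were the 3 smallest p per complex and genotype, the isoform sets, the 3 smallest p per genotype contrast and 2 per mitochondrial list; other genes were picked with their values known. Members and lists were chosen with earlier results of these data known. Transcript length and GC are medians over GENCODE M21 transcripts, and promoters are from RefSeq (GRCm38.p6).

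The same line gives both states, so lines pair samples between states and days by design (correlation of deviations 0.20 in wildtype, 0.25 in mutant). The replicate number shared by genotypes did not (-0.03 proliferative, 0.01 quiescent). The main comparison of states had no term for the line and so did not use the pairing of lines. Only the fit with the line as replicate block used it.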

Additional observations from a re-analysis of the deposited data

Results flagged for a closer look

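The median change of the members from day 8 to day 10 had opposite signs in the genotypes: both mutant lines were above 0 (0.25 and 0.24 in log2(CPM + 0.5)) and both wildtype lines below 0 (-0.17 and -0.10), a difference of means of 0.38. The difference of this median was not tested, since a score over the members is given no p. Gene by gene, no member passed the test of the difference. Other lists shared the pattern. Mitochondrial ribosomal genes summed to 1984 and 2171 CPM at day 8 and 2234 and 2463 CPM at day 10 in mutant lines. In wildtype lines the sums were 2211 and 2204 CPM at day 8 and 1978 and 2037 CPM at day 10. The import, citric acid cycle and cytoplasmic ribosomal lists moved the same way, and the assembly factors and regulators did not. Genotype at day 10 had a member median of 0.24 as fitted and 0.05 after the GC and length correction.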

How the results depend on the processing

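Log2 values of members near 0 changed sign with the settings. Cox6a1 in wildtype was -0.00067 under RLE scaling, -0.00098 under DESeq2, -0.0095 under the replicate block and -0.23 without day 8. Cox7a2l in wildtype was 0.061 under upper quartile scaling, 0.088 with library totals alone, 0.00062 with no filter, 0.016 with at least 1 CPM in 2 libraries and 0.0090 without day 10. Under upper quartile scaling Cox8a in wildtype was 0.0094 and Ndufa4 in mutant 0.0092, and with library totals alone they were 0.037 and 0.0062. Cox8a was 0.014 in wildtype without day 12 and -0.37 in mutant without day 10, Cox6a1 in mutant was -0.087 without day 10, and Ndufa4 in mutant was 0.0026 without day 8. With the GC and length correction Cox7a1, Cox7a2l, Cox8a and Ndufa4 in wildtype were 0.076, 0.22, 0.088 and 0.021, 10 members rose between states in wildtype and 11 rose at day 8. DESeq2 called 9 falling members at day 12 against day 10. Library totals alone gave a median of all genes of 0.15 between states in wildtype; relative to the median of all genes the members' median was -0.35 under both scalings.

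Without single lines, falling members numbered 8 to 16 in mutant, 6 to 44 in wildtype, 12 to 31 at day 8 and 0 to 9 at day 12 against day 10. Rising members numbered 4 to 6 in wildtype and 6 to 7 at day 8. In these fits the log2 values in mutant were -0.34 to 0.90 for Cox6a1, -0.37 to 0.051 for Cox7b, -0.48 to 0.83 for Cox8a and -0.13 to 0.053 for Ndufa4. In wildtype they were -0.036 to 0.64 for Cox4i2, -0.18 to 0.13 for Cox6a1, -0.34 to 0.050 for Cox7a1 and -0.15 to 0.096 for Cox7a2l. A lone line left in a group is assumed to vary like the others. Of the member counts without single lines, only that for day 12 against day 10 without mutant line 1 was set beside all genes. The other counts cannot be read as above or below the share of all genes in the same fit. With the line as replicate block, 13 members fell and 8 rose in mutant, 34 fell and 5 rose in wildtype, and 36 fell and 7 rose at day 8, and no genotype contrast gained a member. Shares of all genes were not set beside the counts of the block fit either, so these counts do not set the members apart from other genes. Genes at a few counts per library, such as Ndufa4l2 and Cox6a2 at day 2, are limited by depth. The cause of these shifts was not tested.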

Other observations

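Ndufb2, Cox6a1, Cox8a and Cox5b, subunits of complexes I and IV, had the largest spread between the lines of a group among the 81 tested members. The spread (SD between lines in log2(CPM + 0.5), pooled over the 8 groups) was 0.52, 0.45, 0.43 and 0.43, against a median of 0.15 over the members and 0.18 over all genes tested. The gaps between lines moved together across groups, with pairwise Pearson correlations of 0.83 to 0.96 over 8 groups that share the 4 lines. At day 2 Cox5b stood at 39.3 and 83.1 CPM in mutant lines, against 61.5 and 63.6 CPM in wildtype lines. At day 8 it stood at 49.6 and 48.1 CPM in mutant lines, against 104 and 52.1 CPM in wildtype lines. Cox6a1, Cox8a and Cox5b have short transcripts (571, 550.0 and 745 bases), while Ndufb2 has 2413 bases and overlaps Braf on the opposite strand in the annotation.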
